A study of Mus musculus with 8 samples.

Results

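Complement and coagulation proteins form a set of 43 liver genes, 20 of the complement system, 21 of blood coagulation and fibrinolysis, and 2 regulators that act in both, vitronectin (Vtn) and clusterin (Clu). Members were taken by gene symbol from the annotation of the array's probes. A probe for 39 of them carried the symbol, and 36 were detected well enough to be tested, of 7882 genes tested in all. Of the complement genes 16 were tested, of the coagulation and fibrinolysis genes 18, and both shared regulators. The probes of Fgb, C1ra and F3 were above background on 0 of the 8 arrays, and C3, Cfd, Cfp and Cpb2 were not analysed here. Liver RNA came from 4 TgC6hp55 and 4 wild type male C57BL/6J mice, all aged 21 weeks. Each liver was measured on 1 array of Illumina Mouse Ref-8 v2.0 BeadChips. TgC6hp55 mice carry a transgene in which the CollagenVI (Col6a1) promoter, active in mesenchymal cells, drives human TNFR1, followed by the human growth hormone (hGH) minigene. The line goes back to 1 male founder, on which the study centred its work, and another founder line was made later. The labels do not name the founder of these livers. In the line that was mapped, the insertion disrupts Icoslg and Dnmt3l. The study detected neither human TNFR1 mRNA nor hGH mRNA in liver, while hGH protein was found in serum. The wild type mice carry none of these changes, and the labels state no treatment for either group.

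Complement is a cascade of plasma proteins in which the classical, lectin and alternative pathways each assemble an enzyme that cleaves C3 and then C5. The cut of C5 starts the terminal pathway, in which C5b, C6, C7, C8 and C9 join into a membrane attack complex that opens pores in target membranes. Coagulation is a second cascade of proteases that ends in thrombin and fibrin, and fibrinolysis takes fibrin apart again. Hepatocytes secrete most of the proteins of both systems into blood.

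Signals are normalised log2 values, so that 1 unit is a doubling, and differences are TgC6hp55 minus wild type. Levels of different probes cannot be set against each other on an array, but their differences between the groups can. Livers are given in the order of replicates 1 to 4. Adjusted p-values come from limma's moderated test with Benjamini-Hochberg adjustment over 8540 features, at a threshold of 0.05. Over all features 11% passed, 6.48% as higher and 4.51% as lower in TgC6hp55 livers, and the median difference was -0.01. Mean raw intensity ran from 112.4 in replicate 4 to 223.5 in replicate 3 among the TgC6hp55 arrays, and from 166.7 to 178.9 among the wild type arrays. Sample titles number the replicates of each group separately, but the descriptions of all 4 TgC6hp55 samples give the same liver number. They were taken as separate livers, since the methods state 4 transgenic and 4 wild type mice. The methods describe the animals of an experiment as littermates or cage mates since weaning, so that livers may share a litter or cage. On this reading, p-values measure the spread between these livers. In whole liver, fewer cells of a type and less RNA per cell cannot be told apart. All 7 tested hepatocyte markers were detected on all 8 arrays and 0 passed, with differences from -0.42 for Cps1 and -0.39 for Pck1, through 0.03 for Ttr, 0.03 for Apoa1, 0.05 for Ahsg and 0.11 for Hnf4a, to 0.38 for Alb. The probes of Alb (5.14 to 6.00) and Pck1 (5.05 to 6.32) were not far above the undetected probe of Tat (4.20 to 4.37). This limits what the differences of Alb and Pck1 show.

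Of the 36 members, 10 passed the test (27.8%), with 3 increases and 7 decreases in TgC6hp55 livers, against 11% of all features. The complement genes and the coagulation genes gave different counts. In complement 6 of 16 passed (37.5%), 1 higher and 5 lower, and all 5 that fell belong to the terminal pathway. In coagulation and fibrinolysis 3 of 18 passed (16.7%), 2 higher and 1 lower. The median difference was -0.23 over the complement genes and 0.07 over the coagulation and fibrinolysis genes, and with median scaling of the arrays these medians were -0.38 and -0.066. Livers of the groups did not overlap for 14 of the 36 members, against 16.8% of all features. The difference between the complement list and the coagulation list was not tested, and the counts are a description of these 36 genes.

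**Figure D1:**
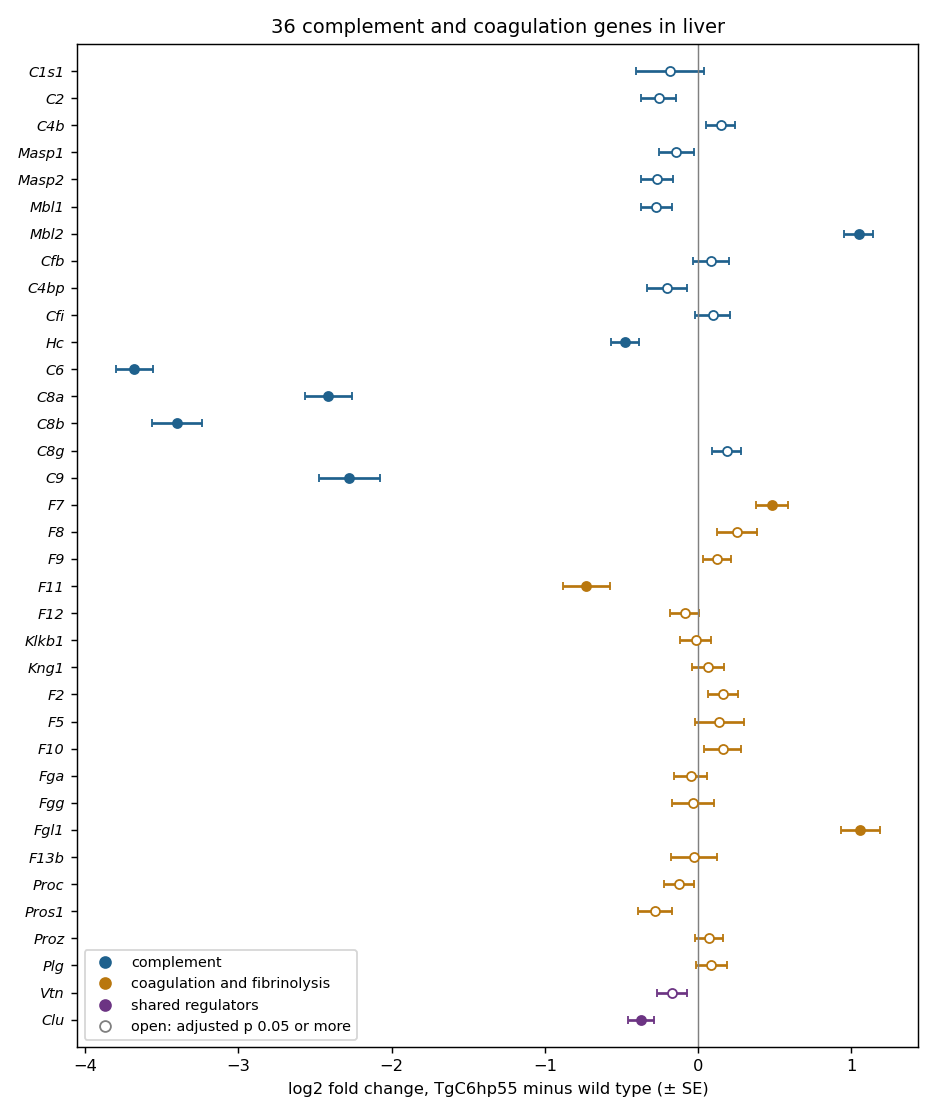
The horizontal axis is the log2 fold change, TgC6hp55 minus wild type, and each of the 36 rows is a gene, with bars of 1 standard error (n = 4 livers per group). Filled points passed an adjusted p of 0.05. C6, C8b, C8a and C9 lie between -3.68 and -2.28, while the 26 open points lie between -0.28 and 0.25.

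The terminal pathway changed most. Of its 6 measured members, 5 fell in the TgC6hp55 livers and 1, C8g, did not pass. C6, whose protein binds C5b first, had log2 signals of 6.79, 6.79, 6.90 and 6.46 in the TgC6hp55 livers, against 10.38, 10.62, 10.24 and 10.42 in the wild type livers. The groups lay far apart, and the highest TgC6hp55 liver was more than 3 units under the lowest wild type liver. C6 fell by 3.68 (standard error 0.12, adjusted p = 1.82e-09), a level 12.8-fold lower, and its other probe gave -3.82.

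C8 is built from 3 chains, alpha, beta and gamma, each encoded by its own gene. C8b, the beta chain that docks C8 on the growing complex, had signals of 7.53, 7.45, 7.43 and 8.07 in TgC6hp55 livers, against 11.12, 11.31, 10.90 and 10.74 in wild type livers. It fell by 3.40 (standard error 0.17, adjusted p = 6.61e-08), or 10.6-fold. TgC6hp55 replicate 4, the array with the lowest mean intensity, stood above the other 3 TgC6hp55 livers, and without it the difference was -3.55. C8a, the alpha chain that inserts into the membrane, had signals of 7.47, 7.35, 6.71 and 7.43 in TgC6hp55 livers, against 9.68, 9.72, 9.62 and 9.60 in wild type livers. The difference was -2.41 (standard error 0.15, adjusted p = 8.05e-07), or 5.33-fold lower, and -2.24 without TgC6hp55 replicate 3, which was the lowest liver and the array with the highest mean intensity.

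C8g, the gamma chain, is a lipocalin, a small carrier-type protein of another family than the other 2 chains. Its signals were 12.79, 12.92, 12.87 and 12.92 in TgC6hp55 livers, against 12.54, 12.75, 12.72 and 12.74 in wild type livers. All 4 TgC6hp55 livers were above all 4 wild type livers, but the difference of 0.19 did not pass (adjusted p = 0.254, 95% interval -0.02 to 0.39), and it was 0.02 with median scaling. The chains of this single complex therefore gave unequal differences. Set against C8g within each liver, C8a differed by -2.60 (standard error 0.19) and C8b by -3.59 (standard error 0.20). Each relative change gave an exact permutation p of 0.0286, two-sided, the smallest that 70 relabellings of 4 and 4 livers allow, and an adjusted p of 0.0367 over 9 pairs of genes examined. Since C8a and C8b lay below and C8g above without overlap, this p was fixed by those values and adds no support.

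C9, which polymerises into the wall of the pore, had signals of 9.44, 9.47, 9.04 and 10.04 in TgC6hp55 livers, against 12.08, 11.98, 11.50 and 11.54 in wild type livers. It fell by 2.28 (standard error 0.20, adjusted p = 1.54e-05), or 4.84-fold. Its highest TgC6hp55 liver, replicate 4, was also the highest for C8b, and its lowest, replicate 3, was also the lowest for C8a and C8b. A second probe of C9 gave -1.87 (adjusted p = 1.48e-04 over all probes), and another, detected on 5 of the 8 arrays, gave -0.42 (adjusted p = 0.0432). Hc, which encodes complement C5 in the mouse, had signals of 10.65, 10.51, 10.43 and 10.57 in TgC6hp55 livers, against 11.05, 11.09, 10.92 and 10.999 in wild type livers. The groups did not overlap, and Hc fell by 0.48 (standard error 0.09, adjusted p = 0.00698), or 1.39-fold, a smaller value than those of C6, C8a, C8b and C9. Under median scaling the difference was -0.62 and did not pass (adjusted p = 0.120).

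**Figure D2:**
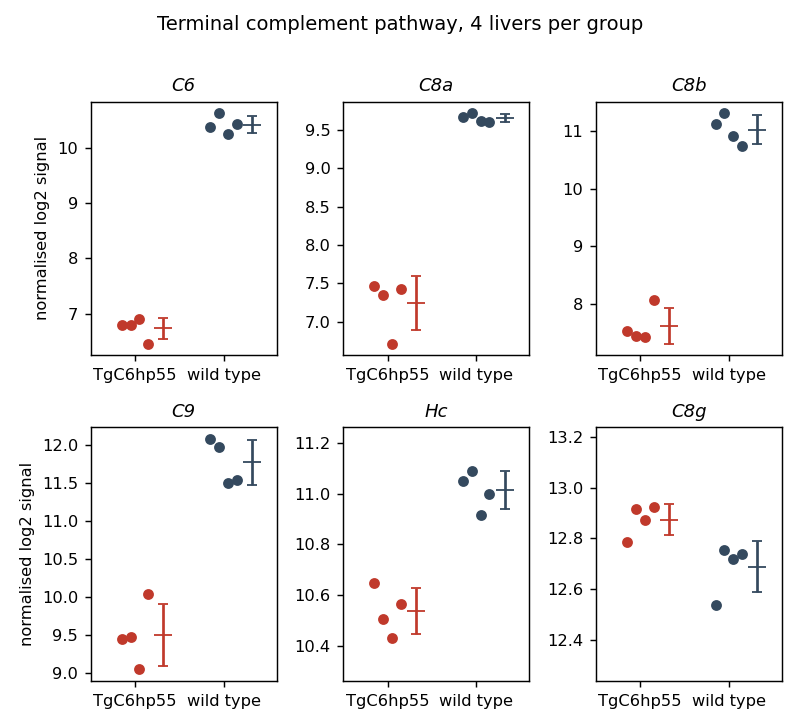
Each panel is a gene of the terminal pathway. The vertical axis is the normalised log2 signal, on a scale of its own in each panel, points are livers, and the dash and bar are the mean and SD (n = 4 per group). For C6, C8a, C8b, C9 and Hc every TgC6hp55 liver is below every wild type liver, and for C8g every TgC6hp55 liver is above, by a mean of 0.19.

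The genes that fell do not share a single locus. C8a and C8b are neighbours on chromosome 4 with 0 protein-coding genes between them, C6 and C9 lie on chromosome 15 with 8 such genes between them, and Hc and C8g lie on chromosome 2 with 196 between them. The 300 bases around their start sites, 250 before and 50 after, are shown because the 5 genes fell together while C8g did not. They are from RefSeq on GRCm38.p6, which gives 1 start site for each of the 5 and 2 for C8g, of which 1 is shown, and they are printed 5′ to 3′ along the gene. The windows are chr15:4726960-4727259 on the plus strand for C6, chr4:104766067-104766366 on the plus strand for C8b, chr4:104876349-104876648 on the minus strand for C8a, chr15:6445096-6445395 on the plus strand for C9, chr2:35061363-35061662 on the minus strand for Hc, and chr2:25500457-25500756 on the minus strand for C8g. Capitals mark matches, on either strand, to any of 6 short motifs named after the sequences.
C6: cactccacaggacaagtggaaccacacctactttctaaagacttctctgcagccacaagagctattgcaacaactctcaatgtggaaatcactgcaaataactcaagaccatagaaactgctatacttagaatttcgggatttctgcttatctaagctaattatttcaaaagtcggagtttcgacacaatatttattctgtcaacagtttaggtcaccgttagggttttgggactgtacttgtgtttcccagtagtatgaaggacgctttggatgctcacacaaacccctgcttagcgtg
C8b: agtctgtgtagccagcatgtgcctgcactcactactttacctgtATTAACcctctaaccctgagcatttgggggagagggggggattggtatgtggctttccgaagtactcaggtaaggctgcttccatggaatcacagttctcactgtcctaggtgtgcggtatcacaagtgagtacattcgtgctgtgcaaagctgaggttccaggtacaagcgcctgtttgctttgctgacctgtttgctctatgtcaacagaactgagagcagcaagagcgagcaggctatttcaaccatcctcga
C8a: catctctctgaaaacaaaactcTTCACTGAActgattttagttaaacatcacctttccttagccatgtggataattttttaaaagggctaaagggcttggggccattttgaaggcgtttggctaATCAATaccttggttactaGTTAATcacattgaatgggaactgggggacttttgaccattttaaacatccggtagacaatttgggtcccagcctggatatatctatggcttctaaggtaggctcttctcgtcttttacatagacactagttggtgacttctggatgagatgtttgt
C9: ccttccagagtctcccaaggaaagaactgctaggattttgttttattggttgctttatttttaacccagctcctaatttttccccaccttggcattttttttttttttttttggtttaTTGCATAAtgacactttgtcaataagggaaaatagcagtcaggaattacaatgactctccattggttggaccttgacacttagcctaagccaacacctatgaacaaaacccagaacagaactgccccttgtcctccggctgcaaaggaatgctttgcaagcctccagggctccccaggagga
Hc: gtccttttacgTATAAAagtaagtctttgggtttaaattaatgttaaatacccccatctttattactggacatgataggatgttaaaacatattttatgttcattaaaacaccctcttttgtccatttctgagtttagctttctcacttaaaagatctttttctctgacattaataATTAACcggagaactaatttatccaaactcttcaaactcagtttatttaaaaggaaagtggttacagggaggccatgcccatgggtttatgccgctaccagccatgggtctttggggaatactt
C8g: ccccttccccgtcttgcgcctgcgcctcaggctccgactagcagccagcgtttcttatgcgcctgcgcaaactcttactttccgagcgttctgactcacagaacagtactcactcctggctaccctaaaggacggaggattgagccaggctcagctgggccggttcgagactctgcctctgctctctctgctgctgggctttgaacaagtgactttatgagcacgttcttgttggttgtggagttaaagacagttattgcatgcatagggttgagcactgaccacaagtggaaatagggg

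The motifs were TTCNNNGAA, the site type of STAT5 and BCL6, ATCAAT and ATCGAT, cores bound by Onecut and Cux proteins, GTTAAT, a site for 1 arm of the Hnf1 dimer, TTGCNNAA, a C/EBP core, and TATAAA. Such short motifs also occur by chance, and a match is a description, not a bound site. The C8a window held TTCACTGAA, ATCAAT and GTTAAT, 1 match each. The windows of C8b and Hc each held 1 match to GTTAAT on the opposite strand, Hc also held TATAAA, and C9 held TTGCATAA. The C6 window and both C8g windows held 0 matches to these letters, so that no motif was common to the 5 genes that fell. Over all 32851 promoter windows of the table, TTCNNNGAA was found in 8.30%, ATCAAT in 7.54%, ATCGAT in 0.925%, GTTAAT in 7.10%, TTGCNNAA in 10.8% and TATAAA in 13.6%. Of the 39 members with a named probe, tested or not, 28 had a window in the table under their listed symbol. Among their 29 windows GTTAAT was found in 11, TTCNNNGAA in 8, TTGCNNAA in 7, ATCAAT in 4, TATAAA in 4 and ATCGAT in 0.

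The genes that start the classical and lectin pathways gave 1 call, an increase. Mbl2 encodes mannose-binding lectin C, a collectin that recognises sugars on microbes and starts the lectin pathway. Its signals were 11.48, 11.42, 11.37 and 11.52 in TgC6hp55 livers, against 10.38, 10.40, 10.54 and 10.29 in wild type livers, with a narrow spread in both groups. Mbl2 rose by 1.05 (standard error 0.10, adjusted p = 1.97e-05), or 2.07-fold. Mbl1 encodes the related lectin, mannose-binding lectin A. Its signals were 10.20, 10.27, 10.26 and 10.08 in TgC6hp55 livers, against 10.55, 10.62, 10.31 and 10.41 in wild type livers. Every TgC6hp55 liver was lower, but the difference of -0.27 did not pass (adjusted p = 0.124). The difference between both lectin genes, Mbl2 over Mbl1, was 1.32 (standard error 0.13, exact permutation p = 0.0286, two-sided, adjusted p = 0.0367 over the 9 pairs). With Mbl2 higher and Mbl1 lower in every TgC6hp55 liver, this p was fixed by those values and adds no support.

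The proteases that act behind the lectins and C1q were closer to 0. Masp2, the protease that cleaves C4 and C2 in the lectin pathway, had 10.40, 10.16, 10.47 and 10.30 in TgC6hp55 livers, against 10.44, 10.64, 10.60 and 10.73 in wild type livers (difference -0.27, adjusted p = 0.143). Masp1, which activates Masp2, had 9.31, 9.54, 9.56 and 9.30 in TgC6hp55 livers, against 9.74, 9.61, 9.33 and 9.60 in wild type livers (difference -0.14, adjusted p = 0.505). The groups overlapped for both. C1s, a protease of the C1 complex carried on the array as C1s1, had 6.36, 6.20, 7.08 and 5.90 in TgC6hp55 livers, against 6.95, 6.42, 6.51 and 6.38 in wild type livers. Its difference of -0.18 had the widest interval among the members, -0.67 to 0.31 (adjusted p = 0.676).

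C2 and C4b supply the parts of the C3 convertase of these pathways. C2 had 10.50, 10.61, 10.41 and 10.82 in TgC6hp55 livers, against 10.89, 10.97, 10.75 and 10.76 in wild type livers, a difference of -0.26 (adjusted p = 0.185). C4b had 11.86, 12.10, 12.04 and 12.02 in TgC6hp55 livers, against 11.86, 11.86, 11.77 and 11.94 in wild type livers, a difference of 0.15 (adjusted p = 0.379). The groups overlapped for both genes. Probes of close relatives, such as C4b and C4a or C1s1 and C1s2, may share signal, which was not tested. Cfb, the protease of the alternative pathway and the neighbour of C2 on chromosome 17 with 0 protein-coding genes between them, differed by 0.09 (adjusted p = 0.718). Set against C2 within each liver, Cfb was higher by 0.34 in TgC6hp55 livers (standard error 0.11), though neither gene passed on its own. The exact permutation p was 0.0286, two-sided, the smallest that 70 relabellings allow, and the adjusted p was 0.0367 over the 9 pairs. This adjusted value rests on ties with other pairs, some of them fixed by genes that separated the groups, so it is weak support. The soluble regulators C4bp, which binds C4b, and Cfi, which cleaves C3b and C4b, differed by -0.20 (adjusted p = 0.387) and 0.10 (adjusted p = 0.664).

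In coagulation, the extrinsic start of the cascade gave an increase. F7, the protease that binds tissue factor, had 8.996, 9.05, 9.20 and 9.25 in TgC6hp55 livers, against 8.70, 8.72, 8.47 and 8.67 in wild type livers. All TgC6hp55 livers were higher, and F7 rose by 0.48 (standard error 0.10, adjusted p = 0.0106), or 1.40-fold. With median scaling F7 did not pass (0.35, adjusted p = 0.603). F7, F10 and Proz lie side by side on chromosome 8, with 0 protein-coding genes between neighbours. F10 differed by 0.16 (adjusted p = 0.456) and Proz, a cofactor in the inhibition of activated F10, by 0.07 (adjusted p = 0.676). Set against F10 within each liver, F7 was higher by 0.32 (standard error 0.13, exact permutation p = 0.0286, two-sided, adjusted p = 0.0367 over the 9 pairs). The groups were barely apart, with a lowest TgC6hp55 value of -2.730 and a highest wild type value of -2.736. As F7 alone had separated the groups, this p adds little support. F10 against Proz differed by 0.09 (exact permutation p = 0.657, adjusted p = 0.739).

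In the contact and intrinsic pathway 1 of 6 members fell. F11, the protease that activates F9, had 9.18, 9.59, 9.73 and 9.21 in TgC6hp55 livers, against 10.28, 10.17, 9.84 and 10.33 in wild type livers. The spread was wide, with TgC6hp55 replicate 3 at 9.73 next to wild type replicate 3 at 9.84, and the groups did not overlap. F11 fell by 0.73 (standard error 0.15, adjusted p = 0.00958), or 1.66-fold. A second probe gave -0.69 (adjusted p = 0.0393 over all probes) and another, detected on 6 of the 8 arrays, gave -0.21 (adjusted p = 0.457). F11 did not pass with median scaling (-0.86, adjusted p = 0.0962) or in the methods' t-test, unpaired and gene by gene (adjusted p = 0.0695).

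Klkb1, plasma prekallikrein, is the neighbour and close relative of F11 on chromosome 8. It had 10.37, 10.28, 10.41 and 10.50 in TgC6hp55 livers, against 10.48, 10.24, 10.35 and 10.55 in wild type livers, a difference of -0.02 (adjusted p = 0.947). The groups overlapped fully, and F11 against Klkb1 within each liver differed by -0.71 (standard error 0.19, exact permutation p = 0.0286, two-sided, adjusted p = 0.0367 over the 9 pairs). As F11 alone had separated the groups, this p adds little support.

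F12, which starts contact activation, had 11.43, 11.29, 11.26 and 11.34 in TgC6hp55 livers, against 11.52, 11.40, 11.30 and 11.46 in wild type livers (difference -0.09, adjusted p = 0.634). Kng1, the precursor of bradykinin, had 13.91, 13.97, 13.74 and 14.11 in TgC6hp55 livers, against 13.84, 13.82, 14.01 and 13.79 in wild type livers (difference 0.07, adjusted p = 0.764). Neither separated the groups. F9, the protease lost in haemophilia B, had 11.71, 11.80, 11.78 and 11.72 in TgC6hp55 livers, against 11.69, 11.70, 11.56 and 11.56 in wild type livers (difference 0.12, adjusted p = 0.443), with the groups just short of overlapping. F8, its cofactor, which sinusoidal endothelial cells make, had 6.47, 6.66, 6.97 and 6.78 in TgC6hp55 livers, against 6.25, 6.37, 6.59 and 6.64 in wild type livers (difference 0.25, adjusted p = 0.271). F8 had the highest positive difference among the 26 members that did not pass. Of 7 tested endothelial markers, 1, Pecam1, passed as higher (14.3%, against 11% of all features). Its difference was 0.48 (adjusted p = 0.0132), and 0.46 with an adjusted p of 0.384 under median scaling. All 7 markers had positive differences, and at an unadjusted p under 0.05 all 7 were up, against 2088 of all 8540 features. The summed linear signal of these endothelial markers, most of it from Clec4g, was 2644 to 2867 in TgC6hp55 livers, against 1746 to 2593 in wild type livers. The part of this in the value of F8 was not tested.

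The end of the cascade was measured by prothrombin, its cofactor system and fibrinogen. F2, prothrombin, had 12.12, 12.04, 11.99 and 12.31 in TgC6hp55 livers, against 11.97, 11.93, 11.92 and 11.97 in wild type livers. These groups did not overlap, and the difference of 0.17 did not pass (adjusted p = 0.334). Fga, the alpha chain of fibrinogen, had 13.55, 13.51, 13.65 and 13.26 in TgC6hp55 livers, against 13.51, 13.68, 13.48 and 13.50 in wild type livers (difference -0.05, adjusted p = 0.835). Fgg, the gamma chain, had 12.51, 12.44, 12.05 and 12.63 in TgC6hp55 livers, against 12.29, 12.53, 12.60 and 12.32 in wild type livers (difference -0.03, adjusted p = 0.914). The groups overlapped for both chains, and Fgg against Fga differed by 0.02 (exact permutation p = 1, adjusted p = 1). Fgb, the beta chain of the same cluster on chromosome 3, was not above background on any array (detection p of 0.0551 or more), and this single probe gives no level for it. F13b, the carrier subunit of the fibrin-crosslinking factor, had 10.38, 10.25, 10.45 and 9.85 in TgC6hp55 livers, against 10.50, 10.33, 10.01 and 10.20 in wild type livers (difference -0.03, adjusted p = 0.932).

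Fgl1, a liver-secreted relative of fibrinogen that does not form clots, was the clearest increase of the coagulation list. It had 10.99, 11.35, 10.76 and 10.84 in TgC6hp55 livers, against 9.97, 10.03, 9.84 and 9.86 in wild type livers. The groups were apart by more than the spread within either, and Fgl1 rose by 1.06 (standard error 0.13, adjusted p = 2.43e-04), or 2.09-fold. It passed in every one of the 18 alternatives run at the 0.05 threshold.

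The anticoagulants Proc, Pros1 and Proz, the cofactor F5 and plasminogen gave no call. Plg, plasminogen, had 12.82, 12.90, 12.80 and 12.98 in TgC6hp55 livers, against 12.97, 12.77, 12.69 and 12.73 in wild type livers (difference 0.09, adjusted p = 0.654). Pros1, protein S, which partly circulates bound to C4bp, had the lowest value among the members that did not pass, with 8.68, 8.93, 8.65 and 8.73 in TgC6hp55 livers, against 9.21, 8.92, 8.89 and 9.10 in wild type livers (difference -0.28, adjusted p = 0.136). Proc, protein C, differed by -0.12 and F5 by 0.14 (adjusted p = 0.482 and 0.658). The 95% intervals of the 15 coagulation and fibrinolysis genes that did not pass reached at most 0.54 from 0 on the log2 scale, so that differences above this size lie outside all of these intervals.

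Of the regulators shared by both systems, Clu, a chaperone that blocks the assembly of the membrane attack complex, had 12.48, 12.49, 12.53 and 12.51 in TgC6hp55 livers, against 12.93, 12.92, 12.83 and 12.80 in wild type livers. The TgC6hp55 livers lay close together and under all wild type livers, and Clu fell by 0.37 (standard error 0.09, adjusted p = 0.0178), or 1.29-fold. It did not pass without wild type replicate 1 (adjusted p = 0.0549), without wild type replicate 2 (adjusted p = 0.0632) or with median scaling (-0.53, adjusted p = 0.220). Vtn, vitronectin, which blocks the same complex and stabilises the inhibitor PAI-1, had 13.02, 12.87, 13.05 and 13.13 in TgC6hp55 livers, against 13.13, 13.14, 13.18 and 13.30 in wild type livers. These overlapped at 13.13, and the difference of -0.17 did not pass (adjusted p = 0.313).

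**Figure D3:**
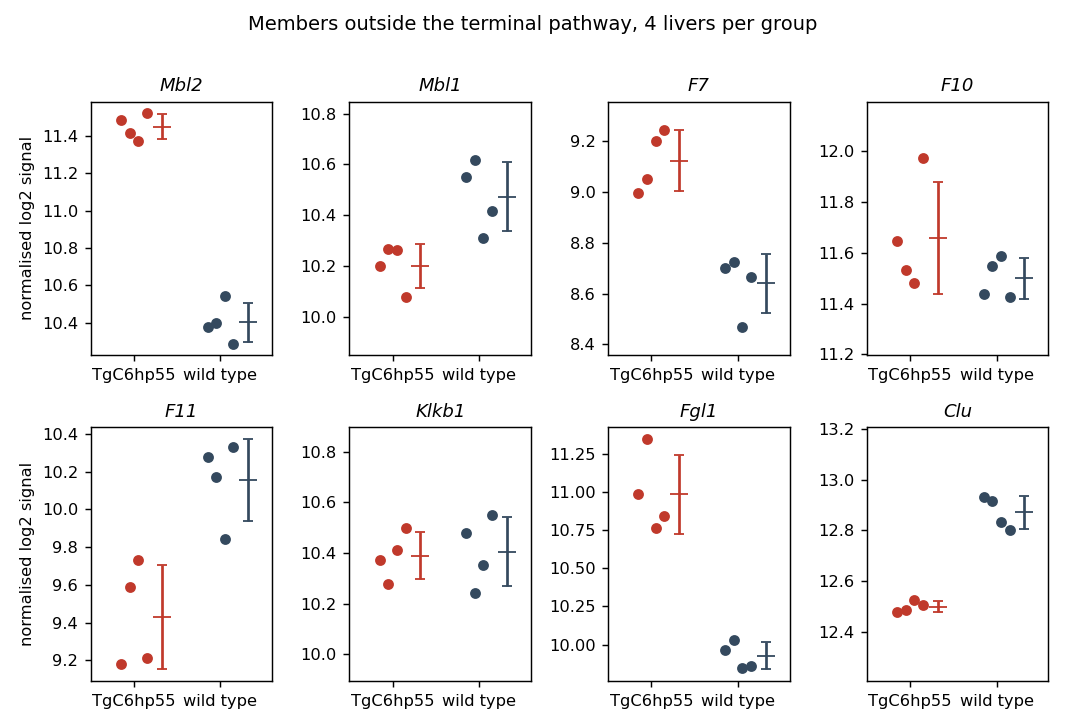
Points are livers and the vertical axis is the normalised log2 signal, on a scale of its own in each panel, with the mean and SD beside them (n = 4 per group). Mbl2, F7, F11, Fgl1 and Clu passed the test. Mbl1 is the related lectin gene of Mbl2, and F10 and Klkb1 are the neighbours of F7 and F11, with differences of -0.27, 0.16 and -0.02 that did not pass.

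Read by liver, no TgC6hp55 liver was more than 0.98 under or 1.42 above the wild type mean for a member outside the terminal pathway, and wild type livers ran from -0.31 to 0.46 around their own mean over all 36 members.

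**Figure D4:**
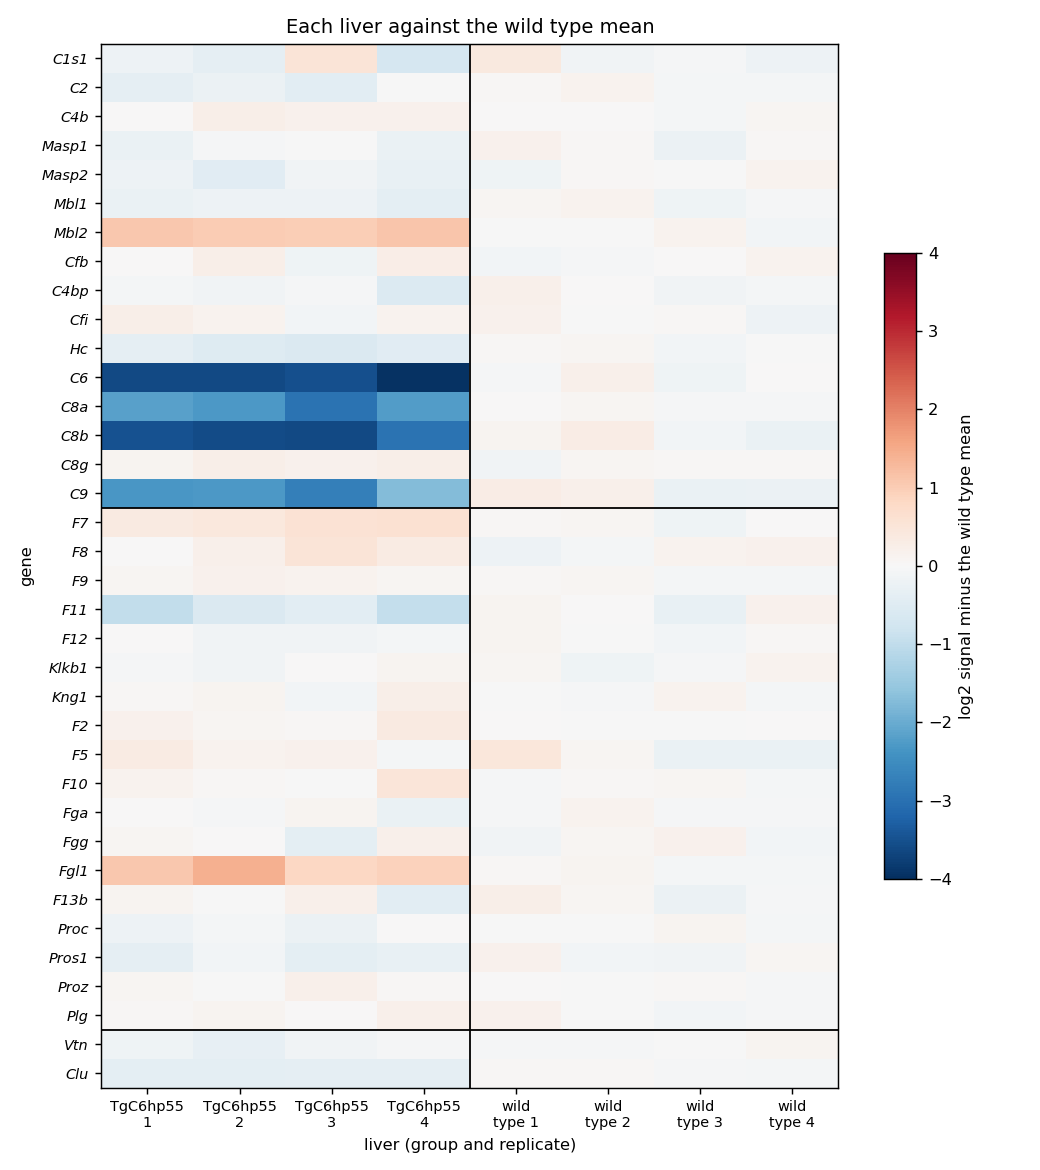
Rows are the 36 tested genes, with complement above the first line, coagulation and fibrinolysis below it and the shared regulators at the bottom, and columns are the 8 livers. Colour is the log2 signal minus the wild type mean of that gene. The 4 TgC6hp55 columns are blue for C6, C8a, C8b and C9 and red for Mbl2 and Fgl1.

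Other genes of the 2 systems were read from a list of their cofactors, inhibitors and receptors. Of 16 tested complement genes outside the members, 2 rose and 0 fell in limma (12.5%, against 11% of all features). At an unadjusted p under 0.05, 8 were up and 1 down, against 2088 of all 8540 features. The methods' t-test called 0. C1qa, a chain of C1q, the recognition part of the classical pathway, had 6.98, 6.997, 7.49 and 7.22 in TgC6hp55 livers, against 5.28, 5.74, 6.74 and 6.13 in wild type livers. It rose by 1.20 (standard error 0.25, adjusted p = 0.0102). C1qb had 8.26, 8.43, 8.80 and 8.35 in TgC6hp55 livers, against 6.01, 7.13, 8.23 and 7.25 in wild type livers (difference 1.31, adjusted p = 0.0353), and kept its call in 2 of 8 fits without 1 of the livers. For both genes wild type replicate 1 was lowest and wild type replicate 3 highest in its group. C1qc gave 1.09 (adjusted p = 0.0592). Macrophages, Kupffer cells in the liver, make C1q, and C1qa, C1qb and C1qc are also on the list of their markers.

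Of 8 tested Kupffer cell and macrophage markers 4 passed as higher (50%, against 11% of all features), and the methods' t-test called 0 of them. All 8 were up at an unadjusted p under 0.05, against 2088 of all 8540 features. The 4 that passed in limma were the pair C1qa and C1qb, Adgre1 (0.92, adjusted p = 0.0324) and Marco (0.73, adjusted p = 0.0417). Adgre1 and Marco each kept the call in 3 of 8 fits without 1 of the livers, and neither passed with median scaling (0.88, adjusted p = 0.169, and 0.78, adjusted p = 0.156). Marco was detected on 4 TgC6hp55 arrays and 1 wild type array, so that it met the detection filter through the TgC6hp55 livers, and its groups overlapped. The summed linear signal of the 8 markers was 1473 to 2231 in TgC6hp55 livers, against 438 to 1644 in wild type livers. Clec4f, which defines Kupffer cells, had 8.14, 8.20, 8.11 and 8.12 in TgC6hp55 livers, against 6.09, 7.24, 8.21 and 7.38 in wild type livers, and Vsig4, a complement receptor of these cells, gave 0.99 (adjusted p = 0.101). The wild type livers were in the same order for Clec4f as for C1qb at both ends. The part of these cells in the values of C1q was not tested. Of the 7 tested hepatocyte markers 0 passed in limma, and the methods' t-test called 0. At an unadjusted p under 0.05, 1 was up and 2 down, against 2088 of all 8540 features. The summed linear signal of these markers, most of it from Ttr, Apoa1 and Ahsg, was 42270 to 45460 in TgC6hp55 livers, against 43160 to 45190 in wild type livers. The remaining complement genes gave no call, among them Fcna, a ficolin of the lectin pathway (0.71, adjusted p = 0.142), Cd59b, a membrane inhibitor of C9 (0.34, adjusted p = 0.0569), and Serping1, the C1 inhibitor (-0.19, adjusted p = 0.247).

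**Figure D5:**
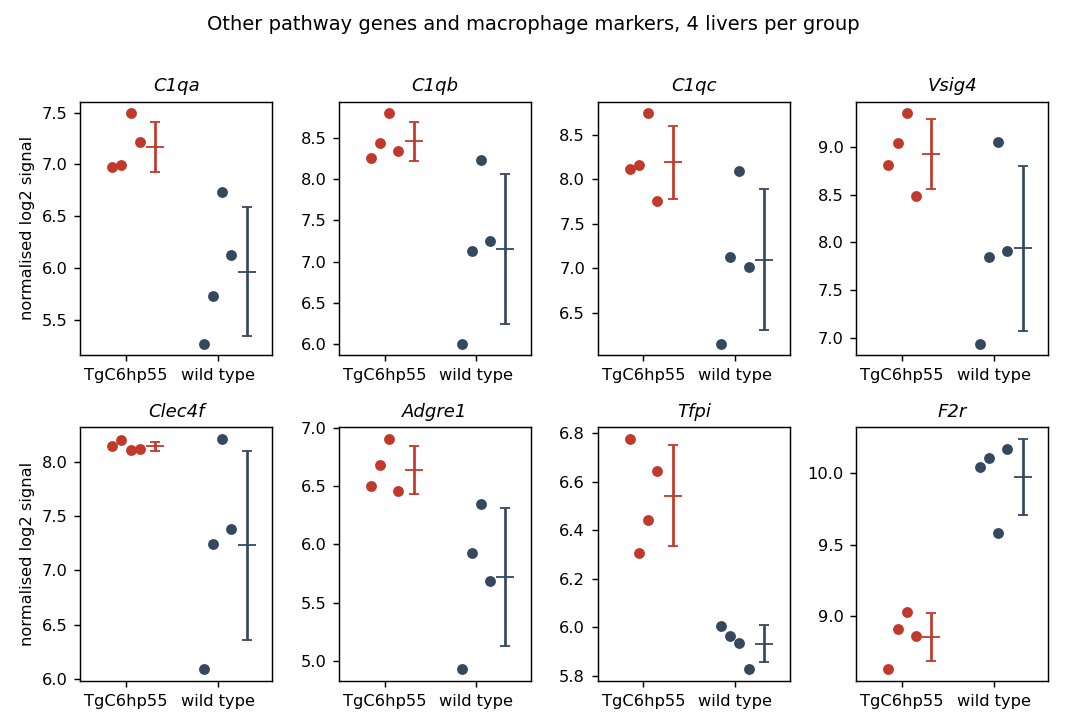
Points are livers, the vertical axis is the normalised log2 signal on a scale of its own in each panel, and the dash and bar are the mean and SD (n = 4 per group). Wild type replicate 1 is the lowest and replicate 3 the highest wild type liver for C1qa, C1qb, C1qc, Vsig4, Clec4f and Adgre1, while Tfpi and F2r do not follow that order.

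Of 18 tested coagulation genes outside the members, 2 rose and 1 fell (16.7%, against 11% of all features). Tfpi, the inhibitor of the tissue factor and F7 complex, had 6.78, 6.31, 6.44 and 6.64 in TgC6hp55 livers, against 6.01, 5.96, 5.94 and 5.83 in wild type livers. It rose by 0.61 (standard error 0.12, adjusted p = 0.00582), and with median scaling the difference was 0.56 and did not pass (adjusted p = 0.170). F2r, the thrombin receptor PAR1, had 8.63, 8.91, 9.03 and 8.86 in TgC6hp55 livers, against 10.04, 10.10, 9.58 and 10.16 in wild type livers. It fell by 1.12 (standard error 0.14, adjusted p = 3.24e-04), or 2.17-fold, and passed in all 18 alternatives at the 0.05 threshold. Mcfd2, which helps F5 and F8 leave the endoplasmic reticulum, rose by 0.36 (adjusted p = 0.0373) but kept its call in 1 of 8 fits without 1 of the livers. Kng2 gave 0.29 (adjusted p = 0.143) and Vwf, von Willebrand factor, -0.00 (adjusted p = 0.990). Serpinc1, antithrombin, gave 0.27 (adjusted p = 0.162) and Serpinf2, the inhibitor of plasmin, 0.16 (adjusted p = 0.288). Among genes of plasminogen activation, Anxa2 gave 0.51 (adjusted p = 0.0627) and Plau 0.34 (adjusted p = 0.162).

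Many complement and fibrinogen genes belong to the acute phase response, in which IL-6 and IL-1 act on hepatocytes. A list of 11 tested receptors, signalling genes and transcription factors also held Foxa1, Foxa2, Foxa3 and Hnf4a, the last a hepatocyte marker here. Of the 11, 0 passed in limma and 0 in the methods' t-test, against 938 and 590 of 8540 features. At an unadjusted p under 0.05, 0 were up and 1 down, against 2088 of these features. The array measures the mRNA of these genes, and the activity of the response was not tested. Stat3 had 8.65, 8.26, 7.76 and 8.77 in TgC6hp55 livers, against 8.40, 8.21, 8.41 and 8.24 in wild type livers (difference 0.05, adjusted p = 0.910), and Foxa1, a factor that opens liver chromatin, gave -0.55 (adjusted p = 0.0647).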

How the data were processed

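Per the file headers and the study's methods, the authors deposited linear intensity values from GenomeStudio 2011.1, before normalization and after cubic spline normalization, with a detection p-value per probe. They pooled no replicates. Negative intensities show that a background had already been subtracted. The genome build is not given in the sources used here, and chromosomes and promoter windows are from RefSeq (GRCm38.p6).

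In R 4.3.3 with limma 3.58.1, the neqc function was run on the unnormalized intensities, which applies normexp using detection p-values, an offset of 16, quantile normalization and log2. Probes with a detection p under 0.05 on at least 4 of 8 arrays were kept (11100 of 25697). The probe with the highest mean stood for its gene, giving 7882 genes and 658 probes with no symbol. Groups were compared with lmFit and eBayes, two-sided, without covariates, after the code was tested on simulated data. SAM, the study's test, was not rerun, and its thresholds of 1.7-fold and an FDR of 0.01 were applied to limma on the spline values. The number of arrays limits precision.

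The members, the lists of other genes and markers, and the alternatives were chosen with earlier results of these data known, so that no list was tested as a whole. All members were to be named, with values per liver for those that passed, for members of the same role and for central components, and, of other pathway genes, those that passed and up to 2 of each role that did not. The 9 pairs compared within livers were adjacent members, the C8 chains and both mannose-binding lectins, tested by exact permutation of 8 livers.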

Additional observations from a re-analysis of the deposited data

Results flagged for a closer look

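In 5 of the 72 combinations of a tested member and a group, 1 liver lay apart from the other 3 by Dixon's criterion, which chance alone meets in about 1 of 20 groups. Among the TgC6hp55 livers, these were replicate 4 for C8b, with a log2 signal of 8.07 where the nearest was 7.53, replicate 3 for C8a, with 6.71 where the nearest was 7.35, and replicate 4 for C4bp, with 10.15 where the nearest was 10.56. Among the wild type livers, they were replicate 1 for C8g, with 12.54 where the nearest was 12.72, and replicate 2 for Fga, with 13.68 where the nearest was 13.51. Without the liver that lay apart, the difference was -3.55 for C8b (adjusted p = 2.48e-08 from limma) and -2.24 for C8a (1.43e-07). For the 3 genes that did not pass, it was -0.09 for C4bp (0.660), 0.14 for C8g (0.490) and -0.00 for Fga (0.997).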

How the results depend on the processing

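The 10 members that passed kept their direction in all 18 alternatives at the 0.05 threshold, and 6 of them (C6, C8a, C8b, C9, Mbl2 and Fgl1) passed in all of these. None of the other 26 passed in any, and 11 of these changed sign in at least 1. With median scaling 293 features passed, 152 of them higher, against 938 with 553 higher, and the coagulation and fibrinolysis genes gave 1 higher and 0 lower. Under it the medians were -0.38 for complement and -0.066 for coagulation and fibrinolysis, while the median of all features was -0.06. The study's thresholds left 256 features, the same 6 members, and 1 coagulation gene higher and 0 lower. The methods' t-test gave 590 features and 0 coagulation genes lower, since F11 missed the threshold. With 1 liver left out, 609 to 917 features passed, the fewest without wild type replicate 2, and the complement median ran from -0.27 to -0.16, the smallest in size without TgC6hp55 replicate 4. Replicate numbers are shared by the groups. Deviations of same-numbered livers correlated at 0.16, 0.12, 0.01 and 0.11 across features. The best-matching wild type liver had the same number for TgC6hp55 replicates 1, 2 and 4, and was replicate 4 for TgC6hp55 replicate 3. The main fit did not pair the livers, and a link between same-numbered livers was not excluded. With the replicate block 912 features and the same 10 members passed. Under the block C1qc and Vsig4 passed, and Marco and Mcfd2 did not. The probes of Fgb, C1ra and F3, at background on all 8 arrays, gave no level.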
